A study of Mus musculus with 6 samples.

Results

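The 10 genes described here are the regulators of mitochondrial biogenesis and the proteins that transcribe and copy mitochondrial DNA (mtDNA). They are the PGC-1 coactivators Ppargc1a and Ppargc1b, the nuclear transcription factors Nrf1 and Gabpa, the mtDNA packaging and transcription proteins Tfam, Tfb1m, Tfb2m and Polrmt, and the replication enzymes Twnk and Polg. Each was found in the deposited table by its Ensembl identifier, matched to its symbol in GENCODE M21, and the set makes up 10 of 54532 genes. RNA from whole kidneys was sequenced in 6 libraries. The 3 Control libraries came from KsprtTA mice and the 3 KSPAPN libraries from KsprtTA/TRE-Adiponectin mice, in which doxycycline switches on adiponectin. Both groups were male, on a C57BL/6 background, and ate chow with doxycycline at 600 mg/kg for 4 days. The Ksp promoter drives the reverse tetracycline activator in the epithelium of the nephron, proximal tubule and collecting duct included. Each library was a pool of 3 mice, 9 mice per group, and p-values therefore measure the spread between pools. The ages of the mice are not given, the sample labels call the Control genotype WT, and their extraction text names liver although the tissue is given as kidney. The comparison asks how adiponectin made in the tubule changes the kidney transcriptome.

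Mitochondria of the tubule supply the ATP for solute transport, and the proximal tubule is among the cell types richest in them. PGC-1 proteins do not bind DNA themselves but are recruited by transcription factors such as NRF1, GABPA and the estrogen-related receptors to genes for respiratory subunits and for the mtDNA machinery. Within the organelle POLRMT, with TFAM and TFB2M, starts transcription from the promoters of mtDNA, the twinkle helicase unwinds it and polymerase gamma copies it.

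None of the 10 genes passed the adjusted threshold of 0.05 in edgeR's quasi-likelihood test, in either direction. Across all 16017 genes tested 2.25% passed it as lower in KSPAPN and 0.393% as higher (2.65% in all). At an unadjusted p under 0.05, 4 of the 10 were lower and 0 were higher, against 11.2% and 7.52% of all genes. Those 4 were Ppargc1b, Polrmt, Polg and Twnk, with fitted levels of 0.685, 0.737, 0.796 and 0.838 times Control. The CPM of the groups (counts scaled to library size, with TMM factors) did not overlap in the same 4 genes, where the share over all genes was 13.1% for KSPAPN lower and 11.4% for KSPAPN higher (24.5% in all). The other 6 genes, Ppargc1a, Nrf1, Gabpa, Tfam, Tfb1m and Tfb2m, had overlapping groups and fitted changes between -0.12 and 0.12 on the log2 scale. DESeq2 called 1 of the 10, Polrmt, as lower, where it called 4.76% of all genes lower and 1.34% higher (6.1% in all). With total counts in place of TMM factors, the unadjusted p in edgeR was 0.0193 for Ppargc1b and 0.0322 for Polrmt. It was above 0.05 for Polg (0.0600) and Twnk (0.105). On that scale KSPAPN replicate 1 lay above Control replicate 2 for Polrmt and Polg, so their groups overlapped.

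Libraries held between 17183358 and 20871173 counts on genes, and the 10 genes together took 0.0389% ± 0.00186 of them in Control and 0.0375% ± 0.00101 in KSPAPN (SD, n = 3 libraries). Each of the 10 had at least 95 counts in every library and passed the filter on low counts. Adipoq, which encodes adiponectin, had an FPKM of 0.0535 ± 0.0464 in Control and 798 ± 125 in KSPAPN. Of 12 proximal tubule markers 10 lay below Control, with 3 called lower (Slc7a13, Miox and Slc22a6) and a summed level of 16400 to 18652 CPM in Control and 15419 to 15892 CPM in KSPAPN. Of 12 markers of the thick ascending limb, distal tubule and collecting duct 1 was called higher, the sodium-potassium-chloride cotransporter Slc12a1, and 5 lay below 0, of which 3 were lower at an unadjusted p under 0.05 (Slc4a1, Aqp3 and Slc12a3) and 1, the anion exchanger Slc4a1, was called lower in DESeq2 only. Their summed level overlapped (4717 to 5463 and 5008 to 6737 CPM). Markers of glomerulus and endothelium, of fibroblasts and smooth muscle and of leukocytes had 0 calls in edgeR and in DESeq2, with 1, 0 and 0 at an unadjusted p under 0.05, and their summed levels overlapped (315 to 436 and 389 to 545 CPM, 157 to 297 and 197 to 374 CPM, 114 to 119 and 98.1 to 141 CPM). In the same order 7 of 8, 7 of 8 and 3 of 6 tested markers lay above 0. The median log2 fold changes were 0.118, 0.188 and -0.047. The liver-defining gene Alb had an FPKM of 2.05 ± 0.791 in Control and 3.04 ± 2.40 in KSPAPN, against 917 ± 119 and 603 ± 32.6 for the kidney gene Miox, while 2 hepatocyte-list genes that kidney also expresses, Ttr and Cyp2e1, were called lower, and the hepatocyte list summed to 1118 to 1644 CPM in Control and 691 to 956 CPM in KSPAPN. Adipocyte markers summed to 19.0 to 25.4 CPM in Control and 19.6 to 28.2 CPM in KSPAPN, with 0 of the 3 tested at an unadjusted p under 0.05 and 0 calls in either tool. No marker of any of these lists was at 0 in all 6 libraries. In whole kidney fewer cells of a type and less RNA per cell cannot be told apart, and the part of these marker shifts in the results below was not tested.

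The sequence before a RefSeq start site is shown for the genes whose promoter holds the ETS core CCGGAAG. These are the letters that GABPA recognizes, and Gabpa is itself one of the 10. RefSeq windows on GRCm38.p6 were used for 9 of the 10 genes, all but Ppargc1b, 11 windows in all, each running from 250 bases before a start to 50 after it. The core was present, on either strand, in 5 of the 11 windows and in 5 of the 9 genes, against 8.86% of all 32851 windows. The matches began 47 bases before the RefSeq start in Tfam, 38 before it in Polg, 43 before it in Polrmt, 93 before it in Gabpa and at 110 and 66 bases before a downstream start of Twnk. GENCODE M21 places the start of Tfam, Polg, Gabpa and Twnk further upstream, so their runs lie inside the gene as annotated there. The runs of Tfam, Polg and Gabpa also overlap an annotated exon. Capitals mark the core, or its reverse complement where the match was on the other strand, and each run is written 5′ to 3′ on the strand of its gene.
Tfam, chr10:71238074-71238102, minus strand: cctgccgcggaCCGGAAGtccgggcttcc
Polg, chr7:79466294-79466322, minus strand: gaggacctcacCCGGAAGtccctctgcac
Gabpa, chr16:84835020-84835048, plus strand: gagggtaagtgCTTCCGGgtccctcagct
Polrmt, chr10:79746582-79746660, minus strand: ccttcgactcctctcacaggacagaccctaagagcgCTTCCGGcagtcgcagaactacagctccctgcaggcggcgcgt
Twnk, chr19:45006443-45006503, plus strand: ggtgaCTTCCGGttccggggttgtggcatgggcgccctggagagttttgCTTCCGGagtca

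The NRF1 element was searched on both strands as GCGC, then any base, then TGCGC. It occurred in 1 of the 9 genes, Polrmt, and in 4.6% of all windows. Polrmt held 2 matches that overlapped each other and spanned the transcription start, shown in capitals.
Polrmt, chr10:79746565-79746594, minus strand: gcaggcgGCGCGTGCGCGTGCGCactgcgg

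Other short motifs were less frequent or common in general. The GC box GGGCGG was found in 6 of the 9 genes and in 35.7% of all windows, the estrogen-related receptor half-site AAGGTCA in 1 gene, Twnk (4.72% of windows), the YY1 motif AAGATGGC in 1 gene, Gabpa (2.75%), and the cyclic AMP response element TGACGTCA in 0 genes (1.79%). These matches describe letters and not binding. Of the 4 genes with non-overlapping groups, Polrmt, Polg and Twnk held the ETS core and Ppargc1b was not searched, and the core was held also by Tfam and Gabpa, whose groups overlapped.

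**Figure D1:**
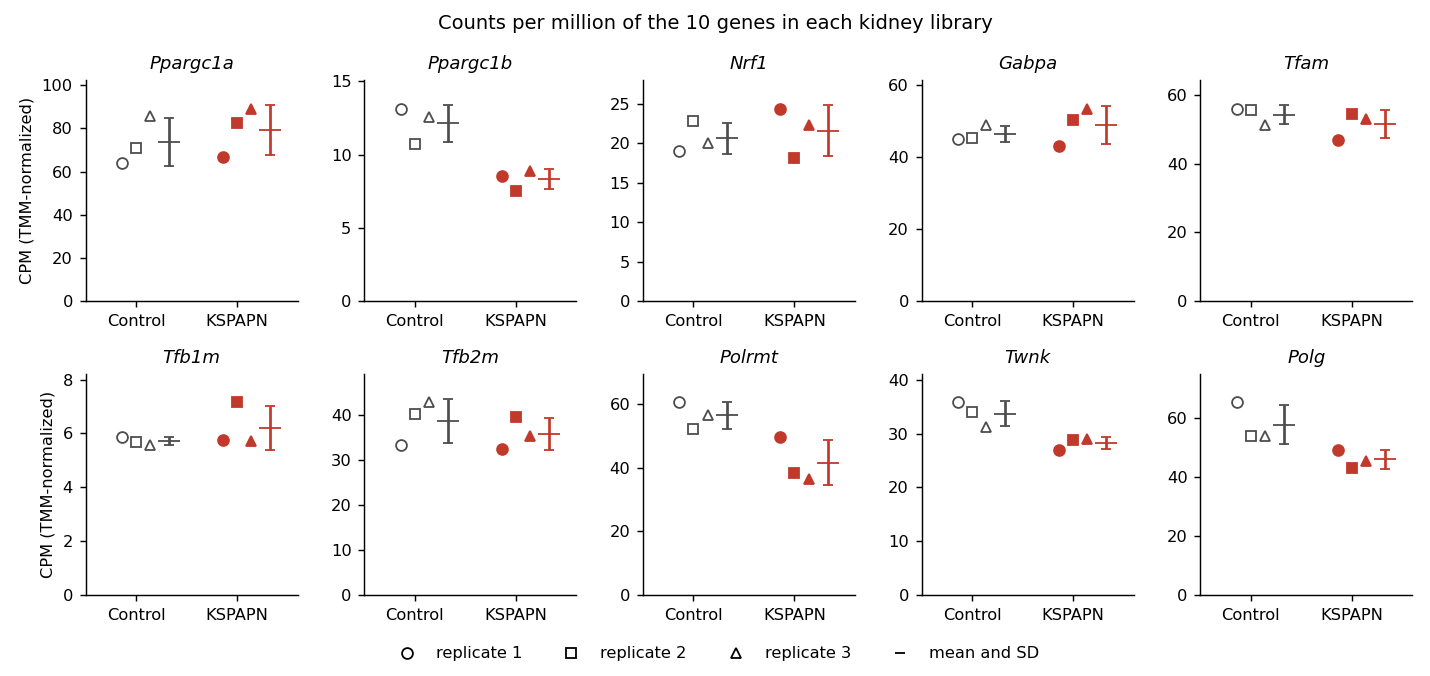
TMM-normalized CPM (y axis from 0) of the 10 genes in each of the 3 Control (open) and 3 KSPAPN (filled) libraries, with the mean and SD beside the points. Ppargc1b, Polrmt, Twnk and Polg show every KSPAPN library below every Control library, while the points of the other 6 genes interleave.

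Ppargc1a encodes PGC-1α, the inducible coactivator of the family, and lies on chromosome 5 (ENSMUSG00000029167, chr5:51454250-51567726, minus strand, GRCm38). Its TMM-normalized level was 64.0, 71.1 and 85.8 CPM in Control replicates 1 to 3 and 66.8, 82.3 and 89.2 CPM in KSPAPN replicates 1 to 3. Each KSPAPN value lay within or just above the Control range, and the groups overlapped. The log2 fold change was 0.11 with a standard error of 0.13 and a 95% interval from -0.19 to 0.41 (adjusted p = 0.717, edgeR). With the trend against GC content and length removed it was -0.04, so the sign was not stable. The unclassified transcript Gm42614, which lies within the gene on the same strand, was at -0.37 (SE 0.43, adjusted p = 0.699).

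Ppargc1b, the paralog that supports basal mitochondrial gene expression, had the lowest log2 fold change of the 10 (ENSMUSG00000033871, chr18:61298136-61400431, minus strand). It stood at 13.1, 10.7 and 12.6 CPM in Control and at 8.52, 7.54 and 8.85 CPM in KSPAPN, from 135 to 237 counts per library. All 3 KSPAPN libraries were below all 3 Control libraries. The fitted change was -0.55 (SE 0.16), or 0.685 times Control, with an interval from -0.90 to -0.20, an unadjusted p of 0.00587 and an adjusted p of 0.0993 in edgeR. DESeq2 gave an adjusted p of 0.0522. The microRNA gene Mir378a lies inside Ppargc1b and had 0 counts in every library. The RNA was enriched with oligo(dT) beads, so these counts do not tell whether the microRNA is made.

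The balance of the 2 coactivators was read as a ratio within each library, which no library scaling can change. The FPKM ratio of Ppargc1a to Ppargc1b was 2.95, 4.02 and 4.14 in Control and 4.74, 6.60 and 6.10 in KSPAPN, and the 2 groups did not overlap. On the log2 scale of counts the ratio was higher in KSPAPN by 0.65. The two-sided exact permutation p was 0.1, the smallest that the 20 arrangements of 3 against 3 libraries can give, and 0.4 after adjustment over the 4 ratios tested. GC content does differ between the 2 genes (41.7% and 57.8%), and with the GC and length trend removed their log2 fold changes were -0.04 and -0.43, which are 0.39 apart.

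Nrf1, nuclear respiratory factor 1, activates cytochrome c and many other nuclear genes of respiration (ENSMUSG00000058440, chr6:30047988-30153458, plus strand). Its level was 19.1, 22.8 and 20.1 CPM in Control and 24.4, 18.1 and 22.4 CPM in KSPAPN. The highest and the lowest library were both KSPAPN. The change was 0.07 (SE 0.14), with an interval from -0.25 to 0.39 (adjusted p = 0.837, edgeR).

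Gabpa, the DNA-binding subunit of the GA-binding protein also called NRF2, lies on chromosome 16 (ENSMUSG00000008976, chr16:84834925-84863779, plus strand). The libraries gave 45.0, 45.4 and 48.9 CPM in Control and 43.1, 50.3 and 53.4 CPM in KSPAPN, with overlap. The change was 0.08 (SE 0.10, interval -0.15 to 0.31, adjusted p = 0.745 in edgeR) and -0.05 with the GC and length trend removed. Gabpa and Atp5j, which encodes a subunit of ATP synthase, start 700 bases apart on opposite strands and share 397 exon bases, and without strand their reads cannot be told apart there. Atp5j itself had a log2 change of -0.27 (SE 0.09, adjusted p = 0.13 in edgeR). The log2 ratio of Nrf1 to Gabpa counts differed by -0.0106 between the groups (exact permutation p = 0.9, also after adjustment over the 4 ratios).

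Tfam, the high-mobility-group protein that packages mtDNA into nucleoids and bends its promoters, was measured with 871 to 1067 counts per library (ENSMUSG00000003923, chr10:71225464-71238280, minus strand). It was at 55.9, 55.7 and 51.1 CPM in Control and at 47.0, 54.4 and 53.0 CPM in KSPAPN. Of the 3 KSPAPN libraries only replicate 1 was below the Control range. The change was -0.08 (SE 0.09), and its interval from -0.29 to 0.13 corresponds to 0.821 to 1.10 times Control (adjusted p = 0.718, edgeR).

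Tfb2m encodes the factor that opens the mtDNA promoter together with POLRMT, and Tfb1m the methyltransferase that modifies the small ribosomal RNA of mitochondria. Tfb2m (ENSMUSG00000026492, chr1:179528055-179546267, minus strand) gave 33.2, 40.0 and 42.7 CPM in Control and 32.3, 39.5 and 35.3 CPM in KSPAPN, a change of -0.12 (SE 0.12, interval -0.39 to 0.16). Tfb1m (ENSMUSG00000036983, chr17:3519256-3557781, minus strand) gave 5.87, 5.68 and 5.57 CPM and then 5.74, 7.15 and 5.72 CPM, a change of 0.12 (SE 0.19, interval -0.30 to 0.54). Groups overlapped for both, with adjusted p of 0.664 and 0.786 in edgeR. Tfb1m was the least counted of the 10 (95 to 128 counts), and its interval is the widest. Tfb2m is uncertain in another way, since 37.3% of the 100-base stretches of its longest transcript occur also in Gm1818. Of their neighbours on the opposite strand, Cnst starts 103 bases from Tfb2m and was at 0.14 (SE 0.11, adjusted p = 0.523), and Tiam2 shares 142 exon bases with Tfb1m and was at -0.54 (SE 0.18, adjusted p = 0.132). The log2 ratio of Tfb2m to Tfb1m differed by -0.22 between KSPAPN and Control (exact permutation p = 0.2, adjusted p = 0.4 over the 4 ratios).

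Polrmt, the RNA polymerase of mitochondria, had the smallest unadjusted p of the 10 (ENSMUSG00000020329, chr10:79736123-79746581, minus strand). The level was 60.4, 52.2 and 56.5 CPM in Control and 49.6, 38.4 and 36.5 CPM in KSPAPN. Every KSPAPN library was below every Control library, and KSPAPN replicate 1 was the closest to Control. The change was -0.44 (SE 0.13, interval -0.72 to -0.16), or 0.737 times Control, with an unadjusted p of 0.00522 and an adjusted p of 0.0953 in edgeR. Polrmt passed the threshold in DESeq2 (adjusted p = 0.0368), without the filter on low counts (0.0093) and without KSPAPN replicate 1, where the change was -0.57 (adjusted p = 0.0153, edgeR). Without Control replicate 1 the adjusted p was 0.332, so the call depends on the tool and the library.

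Twnk, the replicative helicase of mtDNA, was at 35.8, 34.0 and 31.2 CPM in Control and at 26.9, 28.8 and 28.9 CPM in KSPAPN (ENSMUSG00000025209, chr19:45005663-45012762, plus strand). The groups did not overlap, and the nearest libraries were Control replicate 3 and KSPAPN replicate 3. The change was -0.26 (SE 0.10, interval -0.49 to -0.02), with an unadjusted p of 0.0333 and an adjusted p of 0.221 in edgeR. DESeq2 gave an unadjusted p of 0.0561. Twnk starts 779 bases from Mrpl43, a gene of the large mitochondrial ribosomal subunit on the opposite strand, and the pair share 507 exon bases. Mrpl43 had an FPKM of 36.8 ± 2.05 in Control and 28.4 ± 0.158 in KSPAPN, a change of -0.37 (SE 0.09, adjusted p = 0.0657 in edgeR), and how its reads divide from those of Twnk in the shared bases was not tested.

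Polg, the catalytic subunit of the mtDNA polymerase gamma, was at 65.2, 54.0 and 53.8 CPM in Control and at 49.2, 43.1 and 45.4 CPM in KSPAPN (ENSMUSG00000039176, chr7:79446231-79466362, minus strand). All KSPAPN libraries were below all Control libraries. The change was -0.33 (SE 0.11, interval -0.56 to -0.09), or 0.796 times Control, with an unadjusted p of 0.0106 and an adjusted p of 0.131 in edgeR. The ratio of Polrmt to Polg within a library did not separate the groups, with a log2 difference of -0.13 (exact permutation p = 0.4, adjusted p = 0.533 over the 4 ratios). Fanci overlaps 921 exon bases of Polg on the opposite strand and had 4 to 15 counts per library, below the filter, against 772 to 1178 for Polg.

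**Figure D2:**
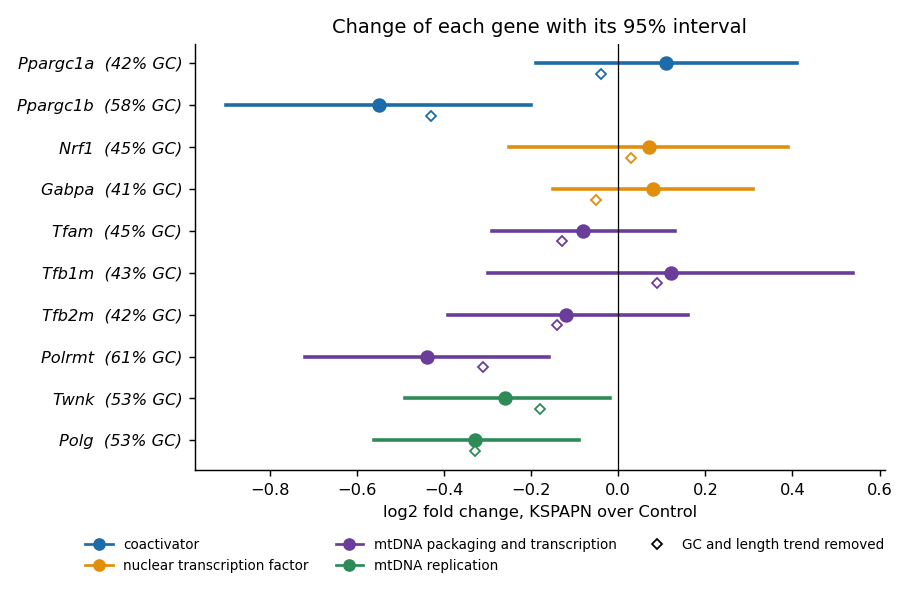
Log2 fold change of KSPAPN over Control (x axis) with its 95% interval for the 10 genes, coloured by role, and the same change after removal of the GC and length trend (open diamonds). The intervals of Ppargc1b, Polrmt, Twnk and Polg lie below 0, and the diamonds of Ppargc1a and Gabpa lie on the other side of 0 from their circles.

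The 4 genes with non-overlapping groups were also the 4 with the most GC-rich transcripts. Their longest transcripts had a GC content of 52.7% to 60.5%, and those of the other 6 had 41.4% to 45.4%. Over all genes tested the fold change was lower at higher GC content, with a median log2 fold change of 0.15 in the lowest of 5 equal bins of GC content, which held Ppargc1a, Gabpa, Tfb1m and Tfb2m, and of -0.12 in the highest, which held Ppargc1b and Polrmt. The share of genes below 0 was 27.4% and 67.0% in these bins. When a trend against GC content and length was removed from each library, the medians of the 5 bins lay between 0.03 and 0.05. The changes of the 4 genes were then -0.43 for Ppargc1b, -0.33 for Polg, -0.31 for Polrmt and -0.18 for Twnk, and those of the other 6 lay between -0.14 and 0.09. The adjusted p in edgeR was then 0.146, 0.0669, 0.0601 and 0.378 in the same order. Of the 10 genes 8 were below 0 after the removal and 6 before it, where 42.5% and 48.1% of all genes were below 0. The median log2 fold change of the 10 was -0.10 before and -0.14 after, beside 0.01 and 0.04 for all genes.

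**Figure D3:**
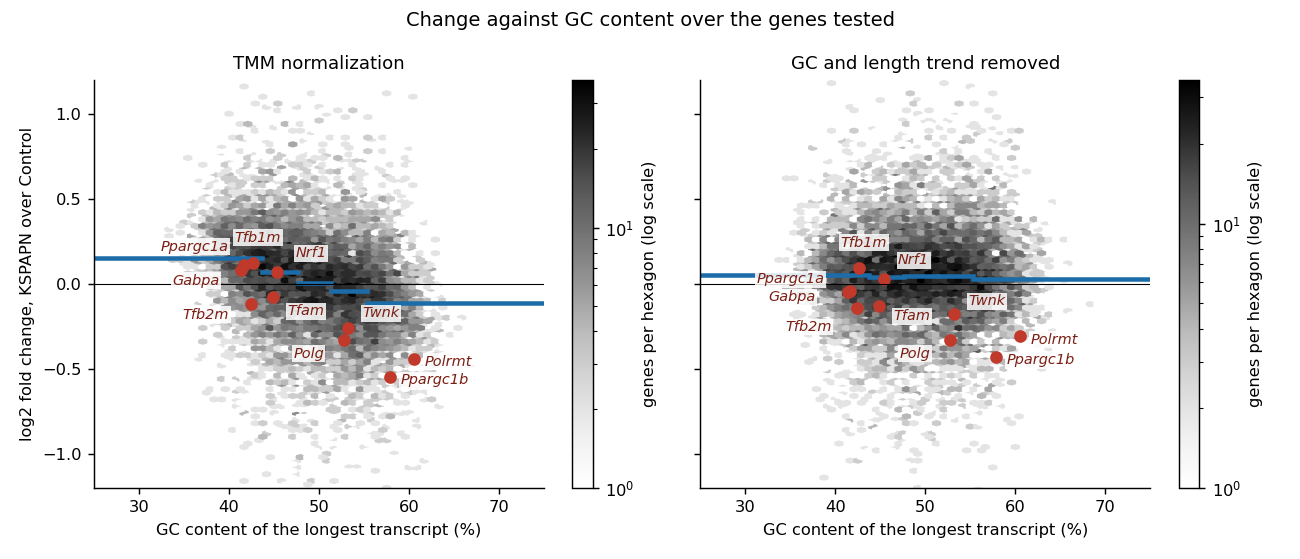
Log2 fold change (y axis) against GC content of the longest transcript (x axis, %) for the genes tested, as counts of genes per hexagon on a log grey scale, before and after removal of the GC and length trend, with the 10 genes in red. Blue bars are the medians of 5 bins of GC content, which step from 0.15 to -0.12 on the left and lie at 0.03 to 0.05 on the right, where Ppargc1b, Polrmt and Polg remain the lowest of the 10.

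Levels were compared between genes per length, as the deposited FPKM. The sources used here do not give its gene lengths, and the order depends on them. In Control Nrf1 had more CPM than Ppargc1b (20.6 and 12.1) but a lower FPKM. The longest transcripts of the pair have 4042 and 3656 bases. Control FPKM was highest for Tfb2m (13.4 ± 1.67), followed by Tfam (11.9 ± 0.624), Polrmt (11.7 ± 0.862), Ppargc1a (10.9 ± 1.61), Twnk (9.39 ± 0.664), Gabpa (7.94 ± 0.350), Polg (5.23 ± 0.60), Ppargc1b (2.96 ± 0.306), Nrf1 (1.95 ± 0.184) and Tfb1m (1.54 ± 0.0438, SD, n = 3). Neighbours from Tfb2m to Twnk overlapped in range, and each neighbouring pair from Twnk to Gabpa downward was apart. In KSPAPN the order of mean FPKM began with Tfb2m (12.3 ± 1.39), Ppargc1a (11.7 ± 1.78) and Tfam (11.2 ± 0.983), which overlapped. Polrmt (8.57 ± 1.37), Gabpa (8.34 ± 0.972) and Twnk (7.84 ± 0.392) overlapped with each other and were apart from Tfam above and Polg (4.14 ± 0.228) below. The gap to Tfam was narrow, with a highest Polrmt value of 10.126 and a lowest Tfam value of 10.129. Polrmt also overlapped Ppargc1a, whose lowest value was 9.69. At the bottom Nrf1 (2.04 ± 0.282), Ppargc1b (2.02 ± 0.153) and Tfb1m (1.67 ± 0.237) overlapped. The FPKM percentile among tested protein-coding genes was 71.9 in Control and 65.1 in KSPAPN for Polrmt, and 37.5 and 29.4 for Ppargc1b.

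The genes whose profile over the 6 libraries was nearest to that of a member were sought for the coactivator Ppargc1a and for Tfam. Nearness was the root mean square difference of centred log2 CPM over the 12247 tested genes whose FPKM averaged 1 or more. The 3 nearest to Ppargc1a were Spp1 (0.0388), Cytip (0.0433) and Gm16861 (0.0526), where the median over all genes was 0.259. For Tfam they were Shmt1 (0.0207), Nras (0.0219) and Cdc16 (0.0236), with a median of 0.196. These distances over 6 libraries describe likeness of profile in these libraries alone.

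The mitochondrial share of counts, the readout of the organelle's own genome, did not separate the groups. The 37 genes of mtDNA took 7.69%, 9.32% and 9.09% of counts in Control and 8.41%, 12.3% and 10.8% in KSPAPN. Replicate 1 had the lowest share in either group, and KSPAPN replicate 1 fell inside the Control range. The means were 8.70% ± 0.880 and 10.5% ± 1.96, a difference of 1.81 percentage points (two-sided exact permutation p = 0.3, n = 3 against 3, where 0.1 is the smallest possible). The difference was 0.911 without KSPAPN replicate 2 and 2.85 without KSPAPN replicate 1. Of the mitochondrial counts 97.9% in Control and 98.1% in KSPAPN were on the 13 mRNAs. Because the RNA was enriched with oligo(dT) beads, these percentages do not give the make-up of RNA in the organelle.

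The 13 mRNAs encoded by mtDNA, products of POLRMT, had 0 calls and 0 genes at an unadjusted p under 0.05 in edgeR, and 0 calls in DESeq2. Their median log2 fold change was 0.22, with 11 above 0 and 2 below, and that median moved to 0.055 when KSPAPN replicate 2 was left out, to 0.096 when Control replicate 1 was, and to 0.428 when KSPAPN replicate 1 was, where mt-Co2 was called higher. Without the filter on low counts mt-Atp6 and mt-Nd6 were called higher and mt-Co3 lower. By smallest p the first was the ATP synthase subunit mt-Atp6 at 0.48 (SE 0.23, adjusted p = 0.299), then the complex I subunits mt-Nd4 at 0.28 (SE 0.17, adjusted p = 0.418) and mt-Nd6 at 0.43 (SE 0.29, adjusted p = 0.463), all in edgeR. For 5 of the 13, mt-Co2, mt-Atp6, mt-Co3, mt-Nd3 and mt-Nd4l, between 97.6% and 99.9% of 100-base stretches also occur in annotated nuclear copies, as do 60.8% for mt-Nd4 and 30.8% for mt-Co1, so the counts of these 7 are uncertain. The ribosomal RNAs mt-Rnr1 and mt-Rnr2 had changes of -0.03 (SE 0.17) and 0.05 (SE 0.20). How well oligo(dT) enrichment recovered these RNAs and mt-Nd6 was not tested. mt-Nd6, the mRNA of the light-strand transcript, made up 2.28%, 4.04% and 3.54% of the counts of the 13 in Control and 3.31%, 3.93% and 4.33% in KSPAPN (exact permutation p = 0.5). Whether counting used strand is not stated, and without strand, reads from the opposite strand cannot be told apart from it.

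Against nuclear genes for subunits of the same respiratory complexes, the mtDNA transcripts were at 3.56, 4.62 and 4.35 times their summed counts in Control and at 4.54, 7.19 and 6.28 times in KSPAPN. KSPAPN replicate 1 lay between Control replicates 3 and 2, so the groups overlapped. The log2 ratio was 2.05 ± 0.197 in Control and 2.56 ± 0.342 in KSPAPN (exact permutation p = 0.2). With the 5 mtDNA mRNAs that share no 100-base stretch with another gene the difference was 0.54, and 0.51 with all 13. The denominator did separate the groups. The 70 nuclear subunit genes took 2.12%, 1.98% and 2.04% of counts in Control and 1.82%, 1.67% and 1.69% in KSPAPN. Of the 70, 68 were below 0 (48.1% of all genes), and 11 passed edgeR's adjusted threshold as lower (2.25% of all genes). Those with the smallest p were Uqcrc1, Cyc1, Ndufv3 and Atp5mc3. The median log2 fold change of the 70 was -0.29, and -0.17 with the GC and length trend removed, when 4 passed as lower.

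**Figure D4:**
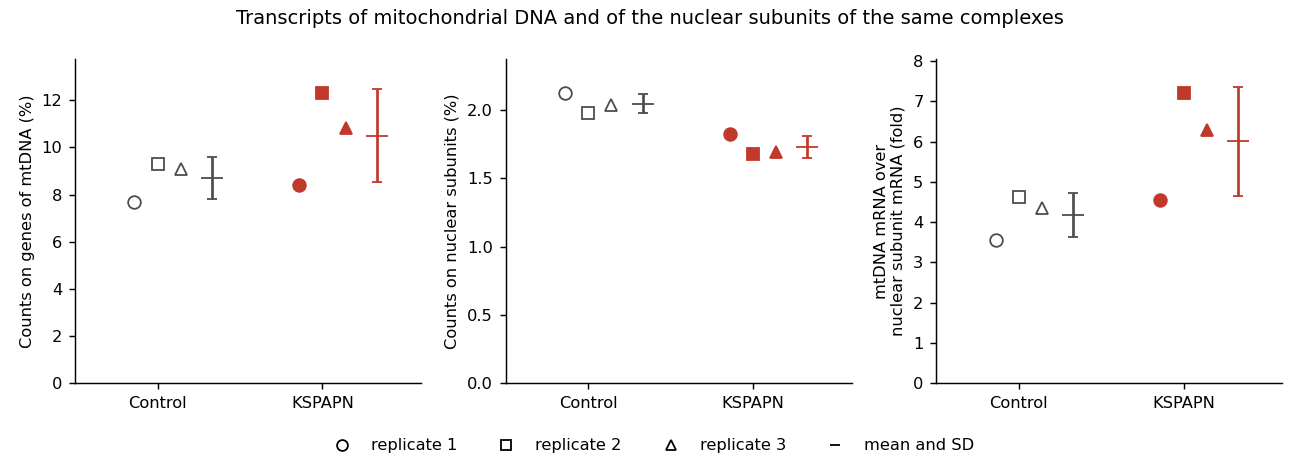
Percent of counts on genes of mtDNA, percent of counts on 70 nuclear subunit genes, and the ratio of mtDNA mRNA to nuclear subunit mRNA, in each Control (open) and KSPAPN (filled) library with the mean and SD, on axes from 0. The groups overlap in the left and right panels and are apart in the middle one, where Control lies at 1.98% to 2.12% and KSPAPN at 1.67% to 1.82%.

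Other regulators of biogenesis moved in both directions. Of 25 such genes 1 was called higher and 1 lower in edgeR, where 0.393% and 2.25% of all genes were. The median log2 fold change of the 25 was -0.03. Sirt3, the main deacetylase of the mitochondrial matrix, was the one that fell, from an FPKM of 11.2 ± 0.675 to 7.54 ± 1.28, a change of -0.57 (SE 0.12, adjusted p = 0.0388, edgeR). Mef2a, a MADS-box transcription factor, rose from 3.33 ± 0.195 to 4.48 ± 0.305, a change of 0.43 (SE 0.09, adjusted p = 0.0384). The fatty acid receptor Ppara was at -0.35 (SE 0.09, adjusted p = 0.078). Both calls were lost without Control replicate 1, 2 or 3 or KSPAPN replicate 2 and in the limma fits. The Sirt3 call was lost also with total counts only and without KSPAPN replicate 1. The Mef2a call was lost also without KSPAPN replicate 3 and with the GC and length trend removed. The estrogen-related receptor Esrra was at -0.39 (SE 0.11, adjusted p = 0.101 in edgeR). Esrra was called lower in DESeq2 (adjusted p = 0.0334), without the filter on low counts and without KSPAPN replicate 1.

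Genes for replication and upkeep of mtDNA had 0 of 25 calls in edgeR. At an unadjusted p under 0.05, 2 were higher and 3 lower (7.52% and 11.2% of all genes). DESeq2 gave 2 lower calls, beside 4.76% of all genes. The 3 with the smallest p were the nucleoid-associated ATPase Atad3a at -0.49 (SE 0.11, adjusted p = 0.0552), the mitochondrial topoisomerase Top1mt at -0.43 (SE 0.12, adjusted p = 0.089) and endonuclease G, Endog, at -0.52 (SE 0.18, adjusted p = 0.169), by edgeR. The median of the 25 was -0.05. Atad3a was called lower without Control replicate 3, and Endog without KSPAPN replicate 1.

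Genes for mitochondrial transcription and RNA processing lay mostly below 0, with 25 of 33 lower (48.1% of all genes). Their median was -0.14, with 1 lower call in edgeR (2.25% of all genes). The gene called was Mrpl12, a ribosomal protein that also binds POLRMT, which fell from an FPKM of 81.9 ± 5.82 to 55.5 ± 2.43, a change of -0.55 (SE 0.09, adjusted p = 0.0150). Tbrg4, also called FASTKD4, was at -0.35 (SE 0.09, adjusted p = 0.0725) and its relative Fastk at -0.30 (SE 0.10, adjusted p = 0.148). The call of Mrpl12 was absent without Control replicate 1 or 2 or KSPAPN replicate 3, when 0 of the 33 passed.

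Of 35 mitochondrial translation factors and tRNA synthetases 31 were below 0 (48.1% of all genes). Their median was -0.14, with 1 lower call in edgeR (2.25% of all genes). That was Tsfm, the exchange factor of the elongation factor Tu, which fell from an FPKM of 15.0 ± 0.964 to 9.93 ± 1.33, a change of -0.59 (SE 0.12, adjusted p = 0.0327, edgeR). The insertase Oxa1l was at -0.38 (SE 0.11, adjusted p = 0.0918) and the tyrosyl-tRNA synthetase Yars2 at -0.46 (SE 0.14, adjusted p = 0.12). Tsfm passed also without KSPAPN replicate 1, and 0 of the 35 passed when any of the other 5 libraries was left out, with total counts only, in the limma fits or with the GC and length trend removed.

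The list of mitochondrial mass covers genes whose proteins are used to gauge how much of the organelle a tissue holds. Their mRNA levels, given here, do not measure that amount. Of the 18 genes 16 were below 0 (48.1% of all genes), with a median of -0.19. There were 3 lower calls in edgeR (2.25% of all genes) and 6 in DESeq2 (4.76%). The 6 were Clpp, Hspe1, Lonp1, Phb, Phb2 and Tomm40, and no fit called Cs, Vdac1, Vdac2, Vdac3 or Tomm20. The prohibitins Phb2 and Phb, scaffold proteins of the inner membrane, fell by 0.42 and 0.38 on the log2 scale (SE 0.08 each, adjusted p = 0.0306 and 0.0430), and the co-chaperonin Hspe1 fell by 0.48 (SE 0.10, adjusted p = 0.0395). With the GC and length trend removed 18 of 18 mass genes were below 0, where 42.5% of all genes were. Their median was then -0.16 and 0 of the 18 passed. The medians of the transcription and translation lists were -0.09 and -0.15 with 0 calls, and 23 of 33 and 26 of 35 genes were below 0. Total counts only and the limma fits also gave 0 calls in the mass list. Leaving out KSPAPN replicate 1 gave 4 lower calls, leaving out Control replicate 3 gave 1, and leaving out any other library gave 0.

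**Figure D5:**
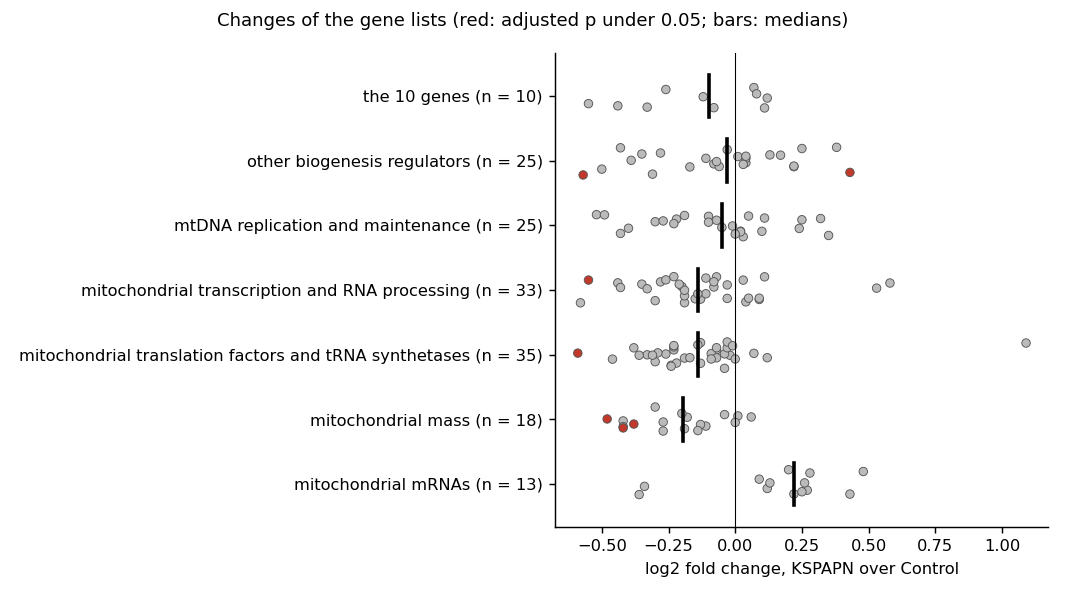
Log2 fold change of KSPAPN over Control (x axis) of every gene in 7 lists, with black bars at the medians and red points at an adjusted p under 0.05 in edgeR. The medians run from -0.19 for mitochondrial mass to 0.22 for the mRNAs of mtDNA, the 10 genes have a median of -0.10, and no point of theirs is red.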

How the data were processed

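Per the labels and the paper, RNA of pooled kidneys was enriched with oligo(dT) beads, and the authors deposited raw read counts per gene and, beside them, FPKM, which they scaled by gene length and library size. Between libraries the FPKM did not follow the count totals given here alone, and what else entered it was not tested. The submitters' processing notes name STAR 2.5, TopHat, HTSeq 0.6.1, DESeq2 and edgeR without roles. The sources used here do not state a genome build, an annotation or whether counting used strand. Of 54532 identifiers 54495 matched GENCODE M21 (GRCm38), which gave symbols, coordinates, and the length and GC content of the longest transcript, and 37 did not match.

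Counts were tested with edgeR 4.0.16 in R 4.3.3 (TMM, filterByExpr with a minimum count of 10 and total of 15, quasi-likelihood, two-sided, Benjamini-Hochberg over 16017 genes, common dispersion 0.0225). Standard errors were the log2 fold change divided by the square root of F. CPM used TMM library sizes, except the summed levels of marker lists, which used total counts. Single values and ratios were compared by exact permutation over 20 arrangements (SciPy 1.17.1, Python 3.11.15). Library totals were 17183358 to 20871173. Reads carry no molecular identifiers, so counting precision covers counting error only.

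Alternatives were RLE factors, total counts, TMM without mtDNA genes and Adipoq, DESeq2 1.42.0, limma 3.58.1 on log2(FPKM + 1) or log2(FPKM + 0.1), no filter, a GC and length trend removed (splines with 5 degrees of freedom), the replicate number as a block, and each library left out. The fits were tested on simulated counts. The genes, lists and tests were chosen with earlier results of these data known. Named beside the 10 genes are list genes at an adjusted p under 0.05, filled up to 3 per list by smallest p, genes that overlap a member or start within 1 kb of its start, and the 3 profiles nearest to Ppargc1a and to Tfam. Of the nuclear subunits past the threshold the 4 with the smallest p are named, and of overlapping genes those that passed the filter, Fanci and Mir378a. Promoter sequences are from RefSeq on GRCm38.p6. No promoter is shown for Ppargc1b.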

Additional observations from a re-analysis of the deposited data

How the results depend on the processing

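No change of the 10 genes passed the adjusted threshold in the direction opposite to the one reported under any of 15 alternatives. Signs turned for Ppargc1a (-0.041) and Gabpa (-0.052) with the GC and length trend removed, for Nrf1 (-0.007) and Tfam (0.005) without KSPAPN replicate 1 (ranges -0.007 to 0.18 and -0.118 to 0.005 over the libraries left out), and for the log2 ratio of Nrf1 to Gabpa, which ran from -0.192 to 0.134 when single libraries were left out (0.0797 without Control replicate 2, 0.134 and 0.0257 without KSPAPN replicates 2 and 3). The cause was not tested. Lower calls among the 10 genes numbered 1 with DESeq2, 1 without the filter, 2 (Polrmt and Polg) with the replicate block, and 0 to 1 with a library left out. Higher calls were 0 throughout. Their median was -0.029 with total counts and -0.156 to -0.018 with a library left out.

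With total counts only, which moved the median of all genes from 0.012 to 0.081, the medians were 0.041 for other regulators, 0.019 for replication, -0.074 for translation and -0.126 for mass, and 0 were called lower in other regulators, translation and mass. DESeq2 called 2 other regulators, 2 replication genes and 6 mass genes lower. Both limma fits gave 0 calls in either direction in other regulators and 0 in translation and mass, and the replication median was -0.004 with a pseudocount of 0.1. Without the filter 3 other regulators, 3 replication, 2 translation and 5 mass genes were lower, and of the mtDNA mRNAs 2 were higher and 1 lower. With the GC and length trend removed 0 other regulators were higher, and 0 transcription, translation or mass genes were lower.

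Replicate numbers are shared by the groups. Deviations of same-numbered libraries correlated at 0.0537, 0.154 and 0.173, so the numbers were not taken as pairing, although every library correlated best with its own number. The replicate block gave 224 higher and 705 lower genes in place of 63 and 361. In the block 2 other regulators, 1 replication, 2 transcription, 2 translation and 5 mass genes were lower, 1 mtDNA mRNA was higher, and the replication median was -0.001. Over all genes DESeq2 gave 214 and 763, total counts 71 and 195, no filter 301 and 1038, GC removal 100 and 300, the limma fits 10 and 118 (pseudocount 1) or 10 and 109 (pseudocount 0.1), and single libraries left out 5 to 162 and 34 to 571.

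With single libraries left out, other regulators had 0 to 1 calls in each direction and a median of -0.057 to 0.02, replication 0 to 1 lower and -0.098 to -0.016, transcription 0 to 1 lower and -0.174 to -0.084, translation 0 to 1 lower and -0.16 to -0.113, mass 0 to 4 lower and -0.271 to -0.167, and mtDNA mRNAs 0 to 1 higher and 0.055 to 0.428. The difference in mitochondrial share ran from 0.911 to 2.85 percentage points, that in the log2 ratio to nuclear subunits from 0.363 to 0.695 and that in the mt-Nd6 share from 0.0653 to 0.947. The log2 ratio of Ppargc1a to Ppargc1b differed by 0.498 to 0.794, of Tfb2m to Tfb1m by -0.349 to -0.131 and of Polrmt to Polg by -0.211 to -0.0478. With 3 pools per group the intervals were widest for Tfb1m (95 to 128 counts) and Ppargc1b (135 to 237 counts).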
